A study of Mus musculus with 12 samples.

Results

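Broad open domains are stretches of the genome where the transposase of an ATAC-seq assay, which cuts DNA that is not packed on nucleosomes, finds access over several kilobases, far beyond the length of a usual peak. The peaks of 12 lists from mouse CD4 T cells were merged wherever at least 1 bp was shared, which gave 75128 regions on chromosomes 1 to 19. The 245 regions at least 4000 bp wide (0.33% of all) are described here. They were selected on the width of the union of all 12 lists, so a region qualified through whichever library was widest, and their widths are a description without a test. The members just inside the limit were regions near Adamtsl4 (4000 bp), in Tsc22d2 (4001 bp) and in Trib1 (4006 bp), and those just outside lay in Nfkbiz (3989 bp), at the start of Tgfb1 (3996 bp) and in Bin1 (3998 bp).

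The study transferred CD4 T cells with the 6.5 T cell receptor, which recognises the influenza antigen HA, into Aire-HA hosts of the Balb/c strain, and sorted T cells from bone marrow 14 days later. There were 6 groups of 2 libraries. Donor Tconv cells were transferred 6.5TCR cells that had not converted (CD45.1-CD45.2+CD3+CD4+CD25-), and donor Treg cells were transferred cells that had converted to regulatory T cells (the same CD45 alleles, CD25+LAP+). Host Tconv cells were CD45.1+CD45.2- CD25- cells titled as wild type and carrying "Aire-HCO" in the library name. Host pTreg and host tTreg cells were CD45.1+CD45.2+ CD25+CTLA4+ cells without (pTreg) or with (tTreg) Nrp1. The iTreg cells were induced in culture from Balb/c wild-type cells and sorted as CD3+CD4+CD25+LAP+. The labels do not say that 2 libraries of a group come from separate animals. They give no age, and the host Treg and host Tconv cells carry different CD45 alleles.

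Regulatory T cells (Tregs) restrain immune responses; they arise in the thymus (tTreg), in tissues (pTreg) or in culture under TGF-beta (iTreg), while conventional T cells (Tconv) in a resting state depend on factors such as Tcf7, Lef1, Satb1 and Klf2. Wide accessible domains are known for genes that define a cell's identity and for genes that are transcribed strongly on stimulation, where open chromatin can run from the promoter into the transcribed body and join nearby enhancers. The lists hold coordinates only, so the bases that peaks cover are the only quantity measured, and read depth is unknown.

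The promoters and miRNAs that the results below turn on are printed first, as RefSeq gives them for GRCm38.p6. Each promoter is the 250 bases before the most upstream annotated start of a gene whose start lies in a domain, 5′ to 3′ on the gene's strand. Ctla4 (chr1:60908775-60909024, plus strand) is shown because its domain was the one called wider in both comparisons of Treg with Tconv cells. Cish (chr9:107296409-107296658, plus strand) and Rara (chr11:98937446-98937695, plus strand) are shown because their domains were widest in iTreg cells. Tnfaip3 (chr10:19015411-19015660, minus strand) and Nfkbia (chr12:55492648-55492897, minus strand) are shown because their domains were in 1 piece in in vivo Treg and in 2 pieces in Tconv lists. Motif letters were searched in each window. Capitals mark matches, on either strand, to AP-1 (TGANTCA), the E-box (CACGTG) and NF-kappaB, searched by name.
Ctla4: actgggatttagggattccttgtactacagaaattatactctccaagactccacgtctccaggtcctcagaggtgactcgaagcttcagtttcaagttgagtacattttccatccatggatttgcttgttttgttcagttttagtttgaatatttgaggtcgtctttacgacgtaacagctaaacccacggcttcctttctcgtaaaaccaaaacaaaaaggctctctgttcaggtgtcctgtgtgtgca
Cish: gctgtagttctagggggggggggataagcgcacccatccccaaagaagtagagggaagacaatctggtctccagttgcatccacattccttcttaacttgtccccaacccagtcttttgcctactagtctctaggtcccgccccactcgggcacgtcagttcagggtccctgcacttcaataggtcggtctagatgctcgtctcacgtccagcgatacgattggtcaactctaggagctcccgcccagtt
Rara: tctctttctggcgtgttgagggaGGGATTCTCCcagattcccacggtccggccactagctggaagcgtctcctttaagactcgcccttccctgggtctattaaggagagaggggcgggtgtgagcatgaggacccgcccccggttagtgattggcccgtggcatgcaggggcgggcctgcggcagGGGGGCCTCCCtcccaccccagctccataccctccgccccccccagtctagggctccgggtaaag
Tnfaip3: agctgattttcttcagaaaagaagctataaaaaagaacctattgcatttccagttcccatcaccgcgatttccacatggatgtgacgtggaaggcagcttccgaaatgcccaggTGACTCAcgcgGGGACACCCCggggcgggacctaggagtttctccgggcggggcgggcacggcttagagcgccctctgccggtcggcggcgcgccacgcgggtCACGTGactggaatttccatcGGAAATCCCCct
Nfkbia: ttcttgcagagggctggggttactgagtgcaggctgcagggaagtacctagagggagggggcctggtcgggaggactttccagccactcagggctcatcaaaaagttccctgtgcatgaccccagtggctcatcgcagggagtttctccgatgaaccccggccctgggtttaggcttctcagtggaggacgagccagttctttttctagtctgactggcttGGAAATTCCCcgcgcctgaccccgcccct
In Tnfaip3, which encodes the NF-kappaB inhibitor A20, matches to NF-kappaB lay at -125 to -116 and -12 to -3, the AP-1 match at -136 to -130 and the E-box at -33 to -28, counted back from the start. Nfkbia, which encodes the inhibitor IkappaB-alpha, had 1 match at -29 to -20. Rara, which encodes a retinoic acid receptor, had matches at -227 to -218 and, overlapping each other, at -65 to -56 and -64 to -55. No searched motif with capitals was found in the Ctla4 or Cish window. Among 175 domain genes with a window, 11.4% held an NF-kappaB match against 7.7% of 16457 autosomal genes, 2.9% against 6.2% held AP-1 and 10.9% against 6.7% held the E-box. The domain windows were richer in G and C, with a median of 63.6% against 55.6%, and held more CG dinucleotides. The letters GGGCGG, bound by SP and KLF factors, were in 68.6% against 43.6%, while the STAT letters TTCNNNGAA were in 4.6% against 6.7%. Of the 175 windows, 125 were covered over all 250 bases in all 12 libraries, including those of Rara, Tnfaip3, Nfkbia and Cish. For these genes the lists differed in how far peaks reached and not in whether they covered the window. The lists hold no signal, so how open the promoter was in each library was not measured.

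Mature miRNAs lay inside 4 domains and within 10000 bp of 9. A domain of 8418 bp (chr11:87753505-87761922), which overlaps Tspoap1, holds Mir142, a miRNA gene of blood cells. A domain of 4849 bp (chr8:84200033-84204881), which covers no coding gene and is nearest to Zswim4, ends 3646 bp before the first mature miRNA of the Mir23a, Mir27a and Mir24-2 cluster. The mature miRNAs are printed with the seed (bases 2 to 8) in capitals.
miR-142a-5p: cAUAAAGUagaaagcacuacu
miR-142a-3p: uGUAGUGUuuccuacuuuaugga
miR-23a-3p: aUCACAUUgccagggauuucc
miR-27a-3p: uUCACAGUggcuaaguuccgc
miR-24-3p: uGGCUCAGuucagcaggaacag
No 2 of these share a seed. Both domains varied between groups, as given below.

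The domains had a median width of 4873 bp and together spanned 1390283 bp. Of the 245, 160 (65.3%) covered the start of a protein-coding gene, 71 (29.0%) overlapped a gene body, 12 lay within 50 kb of a gene and 2 lay further away. A start could be counted only for the 16457 of 20665 autosomal coding genes with an annotated promoter, and for none on chromosome 18. A domain over the start of another gene can thus count under gene bodies, as do those of Gramd3 and Smad7 on chromosome 18. The share at starts may therefore be too low. Of 3053 merged regions at least 2000 bp but under 4000 bp wide, 1833 covered a start. Only 21 domains owed their width to joining alone: 224 of the 245 were a single peak of at least 4000 bp in some library. The widest domain lay in Sfi1 (26349 bp, chr11:3152144-3178492) and was followed by the start of Tnfaip3 (17266 bp), another Sfi1 domain (16527 bp), Dusp10 (15726 bp), which encodes a phosphatase of stress kinases, and Tcf7 (14390 bp), the transcription factor of resting and memory T cells. The next were Btg1 (13959 bp), an antiproliferative factor of quiescent lymphocytes, a domain over Polg2, Ddx5 and Cep95 (12698 bp), Klf6 (9840 bp), Rara (9644 bp) and Mob3a (9250 bp).

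Sfi1 carried 4 domains, all within the first 3.2 Mb of chromosome 11, where the assembled sequence begins, and a further domain began at chr17:3081486. Without these 5 domains, the calls given below fell from 22 to 21 domains covered less in donor Treg against donor Tconv and from 64 to 63 in in vivo Treg against Tconv, and the other counts of calls stayed as given. One of the Sfi1 domains (chr11:3140383-3148919) was covered over 8494, 8508, 8493 and 8465 bp in the 4 Tconv libraries and over 0 bp in the other 8, while a neighbouring one (chr11:3180656-3197182) was covered over 15142 to 16507 of 16527 bp in all 12.

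Domains at T cell genes were frequent. Of 169 autosomal genes in 8 T cell lists, 44 (26.0%) carried a domain, against 258 of all 20665 autosomal protein-coding genes (1.25%). The lists were drawn up by gene function but with earlier results of these data known, so these shares describe the lists and test nothing. The largest share was in naive and quiescence genes, where 14 of 24 carried 18 domains: Tcf7, Satb1, Bach2 and Zfp36l2 carried 2 each, and Btg1, Klf2, Btg2, Ccr7, S1pr1, Lef1, Foxo1, Ikzf1, Bcl2 and Il7r carried 1. Next were the activation response genes, with 13 of 26, namely Tnfaip3, Junb, Dusp2, Cish, Nr4a3, Pim1, Nfkbia, Jun, Fos, Myc, Nfatc1, Irf4 and Egr2. Of the T lineage transcription factors 9 of 20 carried a domain: Tcf7, Satb1, Ets1, Stat5b, Lef1, Gata3, Fli1, Ikzf1 and Elf1.

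Genes of the antigen receptor and its signalling carried few. Of 25 such genes 3 did, Cd28 and Cd2 among them, and the genes of the CD3 chains, Cd4, Lck and Zap70 did not. The receptor loci themselves had domains that the gene table names by the nearest coding gene, over the J segments and the constant region of the alpha chain locus (named Dad1) and over Trbc2 of the beta chain locus (named Prss2). Among 29 autosomal genes of the Treg core and effector Treg list, 3 carried a domain: Ctla4, Irf4 and Socs2. Of 18 TGF-beta pathway genes 5 did: Ski, Smad7, Tgif1, Smad3 and Skil. Only Bcl6 and Gata3 of 24 helper lineage and cytokine genes, 4 of 19 homing genes (Klf2, Ccr7, S1pr1 and Selplg) and 1 of 19 widely expressed genes (Actb) carried one. None of the 42 autosomal marker genes of CD8 T and NK, B and plasma, myeloid, erythroid, or stem and progenitor cells carried a domain.

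**Figure D1:**
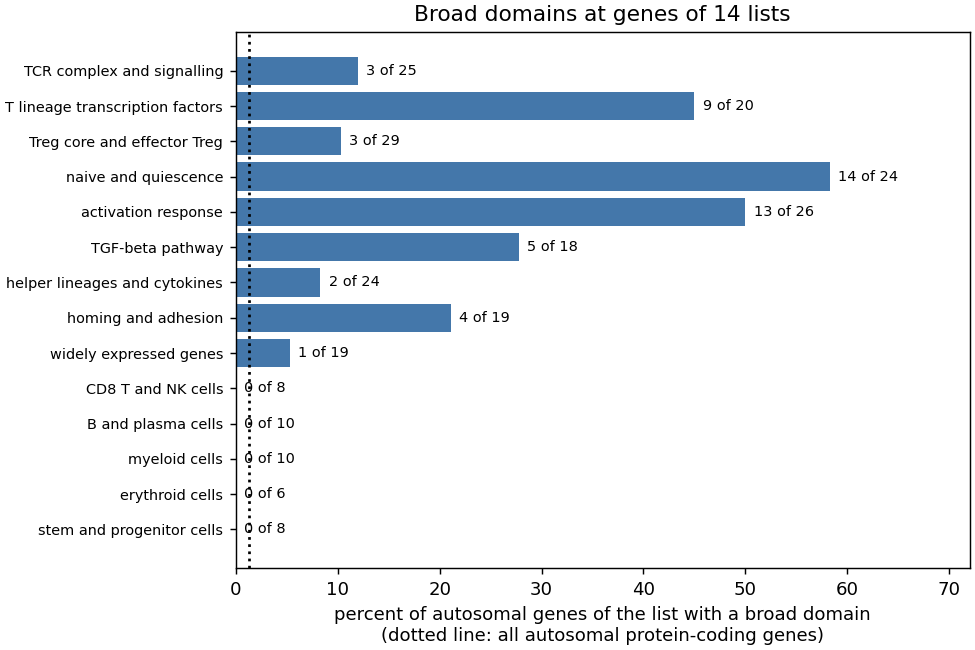
Percent of the autosomal genes of each of 14 lists that carry a broad domain (horizontal axis), one bar per list, with the counts beside it; the dotted line is the 1.25% over all autosomal protein-coding genes. Naive and quiescence genes reach 58.3%, activation response genes 50.0% and T lineage transcription factors 45.0%, and the lists of other cell types stay at 0.

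Promoter windows of T cell genes were touched by peaks more widely than those of other cell types, and these windows do not check the sort of Treg from Tconv cells. In all 12 libraries a peak touched the promoter windows of Cd3e and Cd3g, which encode chains of the CD3 complex, while that of Cd3d, a further chain, was touched in 3 (donor Tconv 2 and both host Tconv libraries). Of 18 TCR genes with a window, 16 to 18 were touched. No library had a peak at any of 5 erythroid windows, 1 of 6 B and plasma cell windows was touched in every library, and 1 to 3 of 6 CD8 T and NK cell windows, 2 to 4 of 7 myeloid windows and 1 to 4 of 8 stem and progenitor windows were. Of 21 Treg core windows 13 to 16 were touched. The window of Foxp3, the factor that defines Tregs, lies on the X chromosome and was touched in no library, those sorted as Treg included.

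Libraries differed in how much of the domains they covered, and the 2 libraries of a group could differ as much as groups did. The lists held 28394 to 63207 peaks. Covered bases inside domains ran from 541085 bp in host tTreg 1 to 1145834 bp in host Tconv 2. The 2 donor Tconv libraries covered 1036653 and 921278 bp, host Tconv 1 covered 734091 bp, the donor Treg libraries 716513 and 768782 bp, the host pTreg libraries 808648 and 646193 bp, host tTreg 2 covered 739417 bp and the iTreg libraries 861607 and 990011 bp. Host Tconv 2 and iTreg 2 were most often the widest library of a domain: the first was widest in 96 domains and the second in 89 of the 245. By covered bases in all, donor Tconv 1 lay above iTreg 2. At 53 domains a single library covered at least 75% of the domain, and in 30 of these it was host Tconv 2 and in 14 iTreg 2. Gpr183, which encodes an oxysterol receptor that guides lymphocyte migration, is such a domain: host Tconv 2 covered all 8041 bp and the other 11 libraries 637 to 1468 bp.

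In vivo Treg libraries covered fewer bases of the domains than Tconv libraries. The 6 in vivo Treg libraries covered 703.4 kb ± 96.4 (SD, n = 6) and the 4 Tconv libraries 959.5 kb ± 176.0 (SD, n = 4), a difference of -256.0 kb (two-sided exact permutation test over 210 splits, p = 0.0381; the smallest p possible is 0.00952). The 2 groups overlapped, since host Tconv 1 lay within the range of the Treg libraries. Leaving out 1 library at a time gave exact permutation p from 0.0238 to 0.0952, and the call was lost without either donor Tconv library, host Tconv 2, donor Treg 1, host pTreg 2 or host tTreg 1. The members were selected on their width in these same libraries, so this p is not independent of the choice. Over the 134 domains that qualify through the iTreg libraries alone, an alternative added after seeing the data, Treg libraries covered 420.3 kb ± 45.0 and Tconv libraries 533.0 kb ± 79.1 (two-sided exact permutation test, p = 0.0476). These domains keep the bounds set by all 12 lists, so this p is not independent of the choice either. For the 245 domains the share of all autosomal peak bases was 3.281% ± 0.083 in the Treg and 3.267% ± 0.195 in the Tconv libraries, a difference of 0.0143 percentage points (two-sided exact permutation test, p = 0.895). For the 134 domains that share was 1.968% ± 0.0887 in Treg and 1.821% ± 0.0348 in Tconv libraries (two-sided exact permutation test, p = 0.019), so the share depended on how the domains were chosen. The iTreg libraries had the lowest shares of the 12, 2.312% and 2.373%. A number in the library name, which the labels do not define, was at most 17000 in the in vivo Treg libraries and at least 42000 in the others. It differs with the same groups and cannot be told apart from them.

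**Figure D2:**
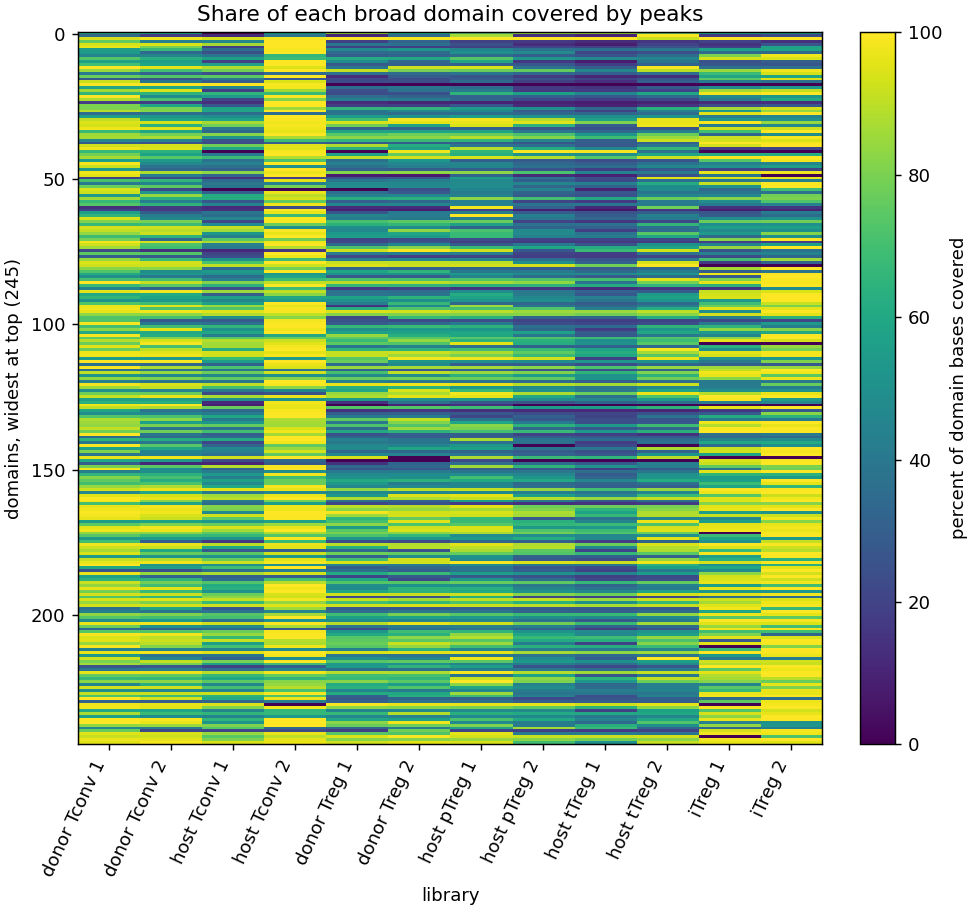
Percent of each domain's bases covered by peaks (colour), with the 245 domains in rows from widest to narrowest and the 12 libraries in columns. Host Tconv 2, the brightest column, covers 82.4% of all domain bases and host tTreg 1, the darkest, 38.9%, and 13 domains stay above 75% in all 12 libraries.

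A small core of domains was wide everywhere. Junb, an AP-1 subunit, was covered over 80.7% to 99.0% of its 7291 bp in the 12 libraries, and 8 domains were covered over at least 80% in every library. Beside Junb and 1 Sfi1 domain these were Ptma (84.3% to 100%), Hivep2 (91.9% to 99.2%), Kdm6b (85.5% to 98.1%), Jade2 (87.2% to 99.1%), Mnt (83.5% to 99.5%) and Kmt2e (85.7% to 99.2%). Kdm6b removes methyl groups from histone H3 lysine 27, Kmt2e is a member of the SET-domain family, Mnt is a partner of Max that opposes Myc, and Ptma encodes the chromatin-associated protein prothymosin alpha. At the other end, 149 domains differed by at least 60 percentage points between their lowest and highest library.

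Most domains reached further into the gene than upstream of it. In 101 domains with a single annotated start, 83 (82.2%) extended further on the transcribed side, with medians of 3349 bp downstream and 1577 bp upstream for the union of the lists. Per library the downstream median ran from 942 bp in host tTreg 1 to 2846 bp in host Tconv 2, and the upstream median from 783 to 1317 bp. The start itself was covered in a like share of these domains in each group, 97.5% in donor Tconv, 98.0% in host Tconv, 95.1% in donor Treg, 94.6% in host pTreg, 93.1% in host tTreg and 94.1% in iTreg libraries. Away from the start the group means parted. At 2000 bp into the gene 48.5% of the domains were covered in donor Tconv, 49.0% in host Tconv and 52.0% in iTreg libraries. The share was 34.2% in donor Treg, 31.2% in host pTreg and 26.2% in host tTreg libraries. At the same distance upstream the share was 21.8% in donor Tconv, 21.8% in host Tconv and 19.3% in iTreg libraries. It was 12.4% in donor Treg, 11.4% in host pTreg and 8.91% in host tTreg libraries. The 2 host Tconv libraries differed. The downstream median was 1571 bp in host Tconv 1 and 2846 bp in host Tconv 2, against 1422 and 1585 bp in the donor Treg libraries. No list was scaled here. Autosomal peak bases ran from 61% of the mean over libraries in host tTreg 1 to 154.1% in iTreg 2.

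**Figure D3:**
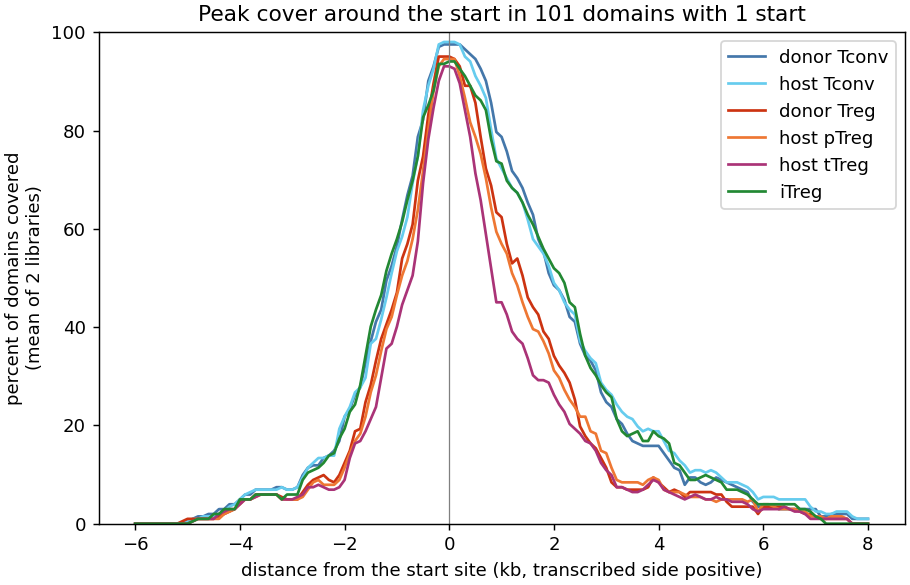
Percent of the 101 domains with 1 start whose base at each distance from the start site lies in a peak (vertical axis, mean of the 2 libraries of a group) against the distance in kb, positive into the gene, in steps of 100 bp, one line per group. The lines meet near the start and part away from it: at 2 kb into the gene the 3 in vivo Treg groups lie at 26.2% to 34.2% and the Tconv and iTreg groups at 48.5% to 52.0%. The lists are not scaled, and a line does not show how far its 2 libraries differ.

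For single domains, the share of the domain's bases covered was fitted with limma over all 64001 regions that had a peak in at least 2 libraries, and a domain was called at an adjusted p under 0.05. Donor Treg against donor Tconv cells compares transferred cells that converted with those that did not, sorted at the same time after transfer. Both groups carry run code BW13, and the labels do not say whether they were sorted together. Ctla4 was the 1 domain covered more, and 22 domains were covered less. The domains covered less included Tcf7, Il4ra, Lfng, Dhx40, Txnip, Myc and Dusp2. Over all regions 1.45% were called more and 15.5% less, against 0.408% and 8.98% of the domains. The median difference was -10.8 percentage points over the domains and -11.6 over all regions. When each list was scaled to an equal total, 13 domains were called more and 13 less, and when scaled over narrower regions shared by all libraries, 6 more and 22 less. Leaving out either host Tconv library, which is not compared here but enters the shared estimate of the spread, gave 42 less, and leaving out donor Tconv 1 gave 9. In the 6 libraries with run code BW13 alone, 10 domains were called less, 8 of them among the 22. Below, "kept" counts alternatives among the log2 scale, no filter, both scalings, the replicate block and leaving out each library compared. The fit within run code BW13 is given apart.

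Ctla4, which encodes the inhibitory receptor CTLA-4 by which Tregs limit costimulation, was covered over 5341 and 5701 of 5759 bp (chr1:60908473-60914231) in donor Treg libraries and over 1317 and 823 bp in donor Tconv libraries. Host Tconv libraries covered 647 and 880 bp, host pTreg 5333 and 1580 bp, host tTreg 3875 and 5351 bp and iTreg 1422 and 2156 bp. All in vivo Treg libraries lay above all Tconv libraries, while host pTreg 2 overlapped the iTreg libraries. The share was higher in donor Treg than in donor Tconv libraries by 77.3 percentage points (SE 19.2, limma adjusted p = 0.034), and this call was lost in 5 of 9 alternatives. Over all in vivo Treg against all Tconv libraries the difference was 62.7 percentage points (SE 12.4, limma adjusted p = 0.0082), kept in all 15 alternatives. CTLA4 was a sorting marker of the host Treg cells but not of the donor Treg cells.

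Tcf7 was the widest domain covered less in donor Treg libraries (chr11:52270303-52284692). Its cover was 13536 and 13582 bp in donor Tconv, 12436 and 14390 bp in host Tconv, 5509 and 5239 bp in donor Treg, 3490 and 1811 bp in host pTreg, 1119 and 2897 bp in host tTreg and 2036 and 3797 bp in iTreg libraries. The 4 Tconv libraries stood far above the other 8, and donor Treg libraries were the highest of the 8. The difference of donor Treg from donor Tconv was -56.9 percentage points (SE 7.1, limma adjusted p = 0.0017). The window before the annotated Tcf7 start (chr11:52283015-52283264) was covered whole in the Tconv, donor Treg and host pTreg 1 libraries. It was covered over 34 to 78 of 250 bp in the other host Treg libraries, and over 0 bp in both iTreg libraries. Whether this window is the promoter used in these cells was not tested.

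Other domains covered less in converted cells had varied roles. Dhx40, an RNA helicase gene, was covered over 5702 and 5448 bp in donor Tconv and 1252 and 1507 bp in donor Treg libraries (-72.2 percentage points, SE 4.1, limma adjusted p = 4.1e-05). Lfng, which modifies Notch receptors with sugar and sets how they answer their ligands, had 5224 and 5377 bp in donor Tconv and 2022 and 1938 bp in donor Treg libraries (-61.0 percentage points, SE 3.9). Il4ra, the receptor chain for interleukin 4 and 13, had 6725 and 6391 bp in donor Tconv and 1111 and 2544 bp in donor Treg libraries (-54.1 percentage points, SE 8.6). An intragenic domain of Ago2, a core protein of the miRNA silencing complex, was covered over 2776 and 2517 bp in donor Tconv and 0 bp in both donor Treg libraries. In each of these 4 the 2 groups did not overlap, and the call was kept in all 9 alternatives; within run code BW13 it was kept for Dhx40, Lfng and Ago2 and lost for Il4ra. Txnip, which lowers glucose uptake and is high in resting T cells, had 4674 and 4747 bp in donor Tconv and 0 and 498 bp in donor Treg libraries. In the same order, Myc had 5184 and 5080 against 782 and 2518 bp and Dusp2 6984 and 6848 against 2208 and 2237 bp. Syf2 had 4086 and 3812 against 1162 and 1319 bp. Atp8b2 had means of 4040 and 1526 bp, lower in donor Treg libraries by 55.9 percentage points. Of these, Syf2 was kept in all 9 alternatives, Atp8b2 in 6, Dusp2 in 5, Txnip in 4 and Myc in 3, and all 5 calls were lost within run code BW13.

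Over all in vivo Treg against all Tconv libraries, 64 domains were covered less and 2 more. Over all regions 28.4% were called less and 4.17% more, against 26.1% and 0.816% of the domains; the share called less was near that of all regions. The median difference was -17.0 percentage points over the domains and -11.7 over all regions. Scaling to equal list totals gave 34 less and 42 more, and scaling over shared narrower regions 51 less and 18 more; 50 of the 64 were kept under the second scaling. The 22 domains that were covered less in all 15 alternatives included Tcf7 (both domains), Dhx40, Il4ra, Lfng, Txnip, Dusp2, Myc, Syf2, Tnfsf8, Zfpm1, Gramd3, Pik3ip1, Ago2, Gpr18 and Septin9. The host Treg libraries carry another run code than the Tconv libraries. In the fit within run code BW13, where donor Treg libraries alone stand for in vivo Treg, 10 domains were called less, 9 of them among the 64; of those just named, the larger Tcf7 domain, Dhx40, Lfng and Ago2 were kept and the other 12 were lost. Without donor Tconv 1 the number covered less was 39, and without host Tconv 1 it was 124.

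**Figure D4:**
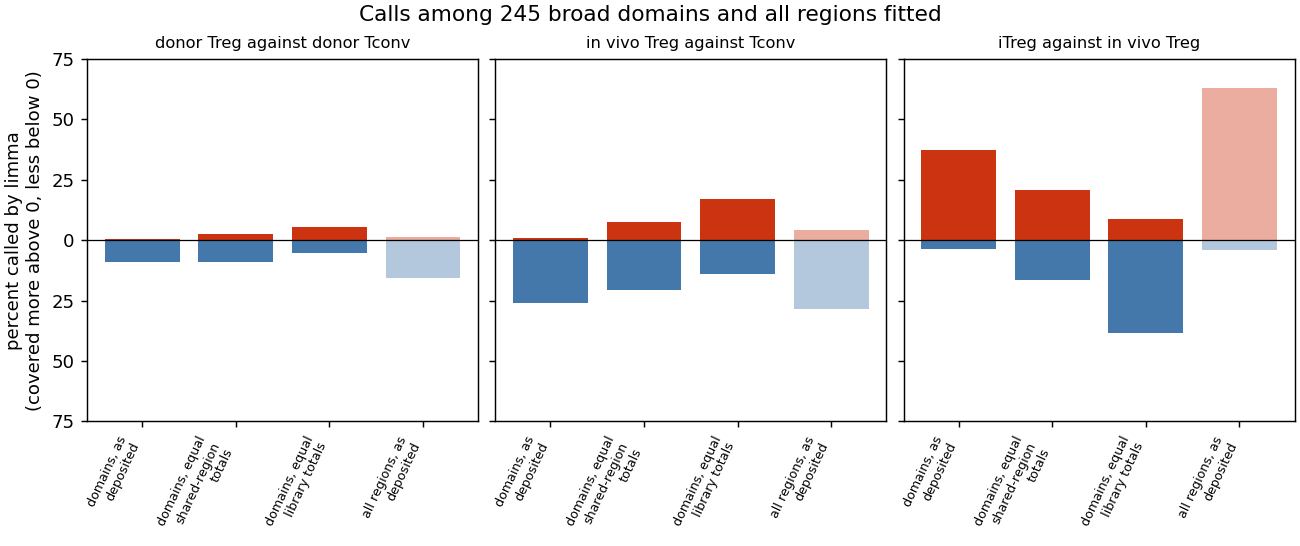
Percent of domains called covered more (red, above 0) or less (blue, below 0) by limma in 3 comparisons, for the lists as deposited and under 2 scalings, beside the percent of all regions fitted (pale bars). In vivo Treg against Tconv the domains called less make 26.1% as deposited, close to the 28.4% of all regions, and iTreg against in vivo Treg the domains called more make 37.6%, against 62.9%.

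In this comparison Tcf7 differed by -70.5 percentage points (SE 4.6, limma adjusted p = 3.7e-05) and its second domain (chr11:52264810-52269903) by -51.8 (SE 6.3), from a mean of 4468 to 1828 bp. Dhx40 was covered over 974 to 1507 bp in the 6 Treg libraries and over 5083 to 5702 bp in the 4 Tconv libraries (-74.6 percentage points, SE 2.6, limma adjusted p = 3.3e-06). Il4ra was covered over 932 to 2544 bp against 6391 to 8674 bp, and Lfng over 1587 to 2641 bp against 4634 to 5377 bp. In Txnip the 6 Treg libraries reached at most 674 bp, but host Tconv 1 had only 448 bp where the other 3 Tconv libraries had 4652 to 4747 bp, so the groups overlapped. Btg1 shows the same library: host Tconv 1 covered 2635 bp and the other Tconv libraries 11087 to 13959 bp, against 2609 to 3585 bp in Treg libraries, and its call was kept in 6 of 15 alternatives.

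Naive and quiescence genes stood below the median of all domains in this comparison. Of their 18 domains 9 were called less and 0 more: Tcf7 (2 domains), Satb1 (2), Lef1, Bach2, S1pr1, Bcl2 and Btg1. Their median was -33.7 percentage points, against -17.0 over all domains. Over all domains 26.1% were called less, and over all regions 28.4%. The lists were drawn up with earlier results of these data known, so these counts describe the lists and test nothing. S1pr1 guides cells out of lymphoid organs and Bcl2 keeps resting cells alive. Klf2, the factor that maintains quiescence, was not called: it was covered over 6493 and 3105 bp in donor Tconv, 2927 and 6576 bp in host Tconv and 1991 to 3044 bp in the in vivo Treg libraries. Of 13 activation response domains 3 were called less (Egr2, Dusp2 and Myc) and 0 more, with a median of -6.8 percentage points. This share called less was near that of all domains. Of 12 T lineage transcription factor domains 5 were called less. These were the Tcf7 (2), Satb1 (2) and Lef1 domains already counted among the naive and quiescence genes, so they are no further calls. Of 3 TCR domains 0 were called in either direction, although their median was -24.3 percentage points.

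The second domain covered more in Treg cells was the one near Zswim4 and upstream of the Mir23a cluster. Its cover was 3782 and 3747 bp in donor Tconv, 1079 and 1218 bp in host Tconv, 4095 and 4261 bp in donor Treg, 4758 and 4251 bp in host pTreg, 3739 and 4700 bp in host tTreg and 4294 and 4676 bp in iTreg libraries. Host Tconv libraries stood alone at a low level and every other library covered at least 3739 bp, so Treg and Tconv values overlapped through the donor Tconv libraries. The in vivo Treg share was higher than the Tconv share by 38.0 percentage points (SE 4.4, limma adjusted p = 0.00067). In donor against host Tconv cells, which compares transferred cells that stayed conventional with the host's own, this was the 1 domain covered more (53.9 percentage points, SE 6.9, limma adjusted p = 0.0062, kept in all 9 alternatives) and 0 were covered less. Over all regions 2.14% were called more and 0.295% less in that comparison. At an unadjusted p under 0.05 limma called 6 domains more and 0 less; without host Tconv 1, 15 were called less, and without host Tconv 2, 21 were called more.

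**Figure D5:**
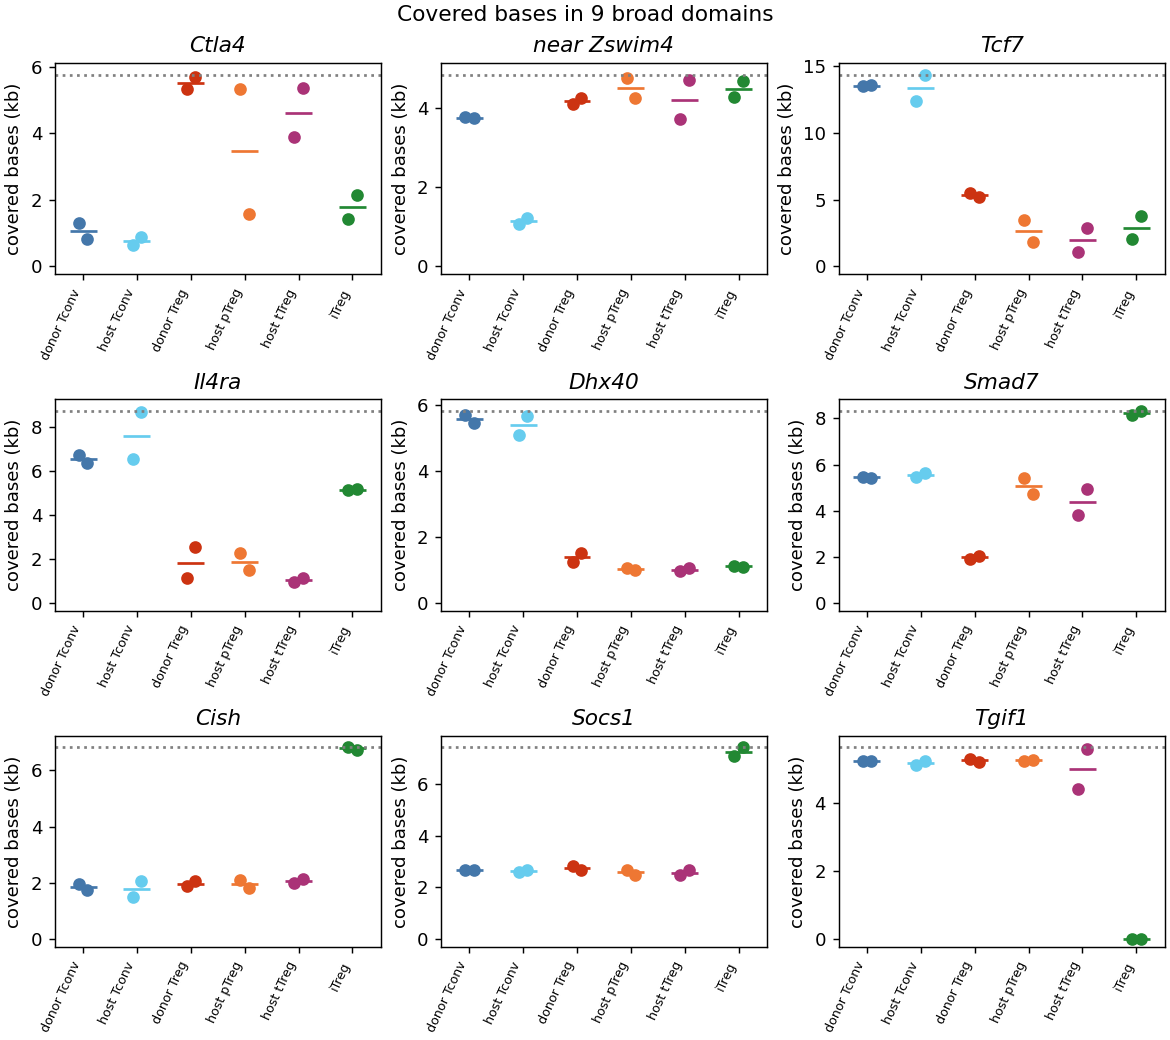
Covered bases in kb (vertical axis) in 9 broad domains, one panel each, with the 2 libraries of each group as points, their mean as a bar and the domain's width as a dotted line. Tcf7 and Dhx40 are high in the 4 Tconv libraries alone, Cish and Socs1 are high in the 2 iTreg libraries alone, host Tconv is low in the domain near Zswim4, and Tgif1 is at 0 in iTreg.

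The comparisons among in vivo Treg cells gave almost no calls. In host pTreg against host tTreg cells 0 domains were called in either direction by limma, with 5 more and 0 less at an unadjusted p under 0.05 and 1 more and 0 less on a log2 scale; over all regions 0.456% were called more and 0.0656% less. The host pTreg share was higher in 212 domains, and host tTreg 1 was the smallest list of the 12. In donor Treg against host Treg cells 1 domain was covered less and 0 more, against 0.466% and 0.384% of all regions. That domain was Smad7 (chr18:75366280-75374603), which encodes the inhibitory Smad that TGF-beta induces to limit its own signal. Donor Treg libraries covered 1921 and 2043 bp of it, host pTreg 5410 and 4742 bp, host tTreg 3827 and 4933 bp, donor Tconv 5478 and 5419 bp, host Tconv 5468 and 5613 bp and iTreg 8160 and 8316 bp. Donor Treg libraries were the lowest of the 12 and did not overlap any other group. The share was lower than in host Treg libraries by 33.0 percentage points (SE 4.2, limma adjusted p = 0.019) and the call was kept in 9 of 11 alternatives. Donor and host Treg libraries carry different run codes, and the cells were sorted on different markers and CD45 alleles. In this comparison run and sort cannot be told apart from the origin of the cells.

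Against in vivo Treg libraries, 92 domains were covered more and 9 less in iTreg cells, which compares Tregs made in culture with those made in the animal. Over all regions 62.9% were called more and 4.12% less, against 37.6% and 3.67% of the domains. Scaling to equal list totals turned this to 21 more and 94 less, and scaling over shared narrower regions gave 51 more and 40 less. The direction of the count therefore depends on the scaling, and 20 domains covered more and 3 covered less were called in all 13 alternatives. Without iTreg 2, 50 domains were called more, and without iTreg 1, 4 were called less. The names of the iTreg libraries carry no run code, so whether they were run with any in vivo library is unknown, and a run cannot be told apart from culture.

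Cish and Socs1 were covered almost whole in iTreg libraries alone. The genes in this and the next paragraph were taken from the largest differences or chosen after their values were seen, and stand for no pathway. Cish, which STAT5 induces and which limits interleukin 2 signalling, was covered over 6813 and 6735 of 6813 bp in iTreg libraries and over 1513 to 2150 bp in the other 10 (chr9:107295130-107301942). Socs1, a related inhibitor of JAK kinases, was covered over 7079 and 7404 of 7404 bp in iTreg libraries and over 2479 to 2839 bp in the other 10 (chr16:10780025-10787428). Both groups of values lay far apart and the other 5 groups lay close together. The differences from in vivo Treg libraries were 4772 bp for Cish (SE 207, limma adjusted p = 5.6e-07) and 4606 bp for Socs1 (SE 182, limma adjusted p = 3.2e-07). Socs2, a further member of this family, covered 4127 and 4109 bp in iTreg, 2210 and 2688 bp in donor Treg and 900 to 2311 bp in host Treg libraries (58.2 percentage points, SE 7.7), and this call was kept in 12 of 13 alternatives. Bcl6, the repressor of follicular helper cells, covered 4414 and 4548 bp in iTreg and 1791 to 2712 bp in the other 10 libraries, and was also kept in 12.

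Of the 5 TGF-beta pathway domains 2 were called more (Ski and Smad7) and 1 less (Tgif1). Over all domains 37.6% were called more and 3.67% less, so the share called more was near that of all domains. Rara was covered over 7750 and 9422 bp in iTreg and over 2542 to 3489 bp in in vivo Treg libraries, with 3795 to 6376 bp in Tconv libraries (57.5 percentage points over in vivo Treg, SE 7.6). Ski, a corepressor of Smad proteins, was covered over 6493 and 8195 bp against 1717 to 2492 bp (60.7 percentage points, SE 5.5). Ptger4, a prostaglandin E2 receptor gene, was covered over 6133 and 8404 bp against 2670 to 3449 bp (46.0 percentage points, SE 6.8). Smad7 was higher by 53.2 percentage points (SE 4.0, kept in 12 of 13 alternatives). The intragenic Ago2 domain was covered over 4381 and 4615 bp in iTreg libraries and over 0 bp in 5 of the 6 in vivo Treg libraries, with 1031 bp in host pTreg 1 (92.8 percentage points, SE 6.0, limma adjusted p = 5.5e-06). A domain over the histone genes H2ac13, H2bc13 and H3c10 was covered over 4059 and 4328 bp against 815 to 1266 bp, and those of Zfpm1, Fnbp1, Mafk, Dusp2, Ldlrad4, Gpr146 and Arhgef1 by 64.2 to 69.8 percentage points more; of these Arhgef1 was not kept under equal list totals. Actb, the gene of cytoplasmic actin, was covered over 4820 and 6472 bp against 1545 to 3450 bp. The Mir142 domain was covered over 7225 and 7642 bp in iTreg and 1411 to 3471 bp in in vivo Treg libraries, while donor Tconv libraries had 7216 and 7952 bp and host Tconv libraries 1564 and 7221 bp; this call was kept in 10 of 13 alternatives.

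Il4ra and Dusp2 were wide in iTreg and most Tconv libraries and narrow in in vivo Treg libraries. Il4ra was covered over 5136 and 5186 bp in iTreg libraries, below the 6391 to 8674 bp of Tconv and above the 932 to 2544 bp of in vivo Treg libraries. Dusp2, a phosphatase of ERK kinases, was covered over 6614 and 6646 bp in iTreg, 1741 to 2237 bp in in vivo Treg and 2853 to 6984 bp in Tconv libraries. Dhx40 and the larger Tcf7 domain were not wide in iTreg cells: Dhx40 was covered over 1128 and 1075 bp there. The in vivo Treg libraries enter both this comparison and that with Tconv cells, so the values are given side by side and their agreement is no further support.

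The 9 domains covered less in iTreg cells were Tgif1, Zmiz1, Ubtf, Trib1, H60b, Ctla4, Nr4a3, a region without a coding gene within 50 kb (chr10:19184375-19189263) and Iqcn. Tgif1, a corepressor of Smad-driven transcription, was covered over 4426 to 5585 bp in the 10 other libraries and over 0 bp in both iTreg libraries, and Zmiz1, a coactivator that works with Notch1, over 2572 to 5040 bp and 0 bp. Nr4a3, which antigen receptor signalling induces, was covered over 1232 and 1415 bp in iTreg against 3135 to 5981 bp in in vivo Treg libraries (-44.5 percentage points, SE 10.8). Ctla4 was lower by 47.6 percentage points (SE 15.7, limma adjusted p = 0.03), with overlap through host pTreg 2 and the call kept in 8 of 13 alternatives. Some of the absences went against the other library of the group. There were 10 cases, at 8 domains, in which a library had no peak although the other library of its group covered at least 50% of the domain, as at Per1 (0 bp in host Tconv 2 and iTreg 1, at least 3785 bp in the other 10), Pfn1, Trib1 and Shisa5 (0 bp in iTreg 1) and Ubtf (0 bp in donor Treg 2 and in both iTreg libraries). What leaves such gaps in a list was not tested. Ubtf, Trib1, Tgif1 and Zmiz1 thus had no peak in at least 1 library, and of the 9 domains called less 5 had a peak in all 12 libraries.

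Domains are also divided by how many pieces a library's peaks make of them. Of the 245 domains, 133 were in at least 2 pieces in some library, from 31 in host Tconv 2 to 97 in host tTreg 1. A domain was called broken on one side when it was in 1 piece in every library of the other side and in at least 2 pieces in every library of that side. Whole means in 1 piece, which can cover only part of the domain. A domain can thus be whole on the side that covers fewer of its bases. Broken in donor Treg and whole in donor Tconv libraries were 15 of 239 domains, against 0.866% of all regions with a peak in these libraries, and the reverse held for 5, against 0.353%. Among regions at least 2000 bp but under 4000 bp wide the shares were 2.64% and 0.912%, and no test of the difference was made. Over all in vivo Treg against all Tconv libraries 4 domains (1.69%) were broken in Treg cells and 3 (1.27%) in Tconv cells. The shares were 0.0972% and 0.0509% of all regions, and 0.378% and 0.0688% of regions at least 2000 bp but under 4000 bp wide. In iTreg against in vivo Treg libraries 14 domains (6.06%) were whole in iTreg and broken in in vivo Treg cells, and 3 (1.3%) the reverse. The shares were 0.559% and 0.144% of all regions, and 2.41% and 0.379% of regions at least 2000 bp but under 4000 bp wide.

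The 4 domains broken in every in vivo Treg and whole in every Tconv library were Coro1a, Tmsb10, Plec and Irf4. Coro1a, which encodes the actin-binding protein coronin 1A of lymphocytes, was in 1 piece of 4680 to 4979 bp in Tconv libraries, in 2 or 3 pieces of 2972 to 4620 bp together in in vivo Treg libraries and in 1 piece of 4726 and 4963 bp in iTreg libraries. Tmsb10, the gene of an actin-sequestering thymosin, was in 1 piece of 2820 to 5016 bp in Tconv and in 2 or 3 pieces of 2453 to 3898 bp in Treg libraries. Irf4, a factor of effector Tregs, was in 1 piece of 2189 to 3968 bp in Tconv, 2 pieces of 1823 to 4102 bp in in vivo Treg and 1 piece of 4302 and 4688 bp in iTreg libraries. Plec differed little in cover, with 5087 to 5285 bp in Tconv against 4546 to 5026 bp in in vivo Treg libraries. In iTreg against in vivo Treg cells the domains of Mob3a, Ptger4, Rara and the smaller histone cluster (H2ac11, H2bc11 and H4c9) were also whole in iTreg libraries and broken in in vivo Treg libraries. The larger Tcf7 domain also counted as whole in iTreg libraries, with 1 piece of 2036 and 3797 of its 14390 bp.

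The 3 domains in 1 piece in every in vivo Treg and in 2 pieces in every Tconv library were Tnfaip3, Nfkbia and Ahnak. In Nfkbia (6341 bp wide) and Ahnak (4586 bp wide) the 1 piece left part of the domain uncovered in every in vivo Treg library. In Nfkbia (chr12:55486862-55493202) 1 piece of 2027 to 3108 bp in Treg libraries faced 2 pieces of 2430 to 5027 bp together in Tconv libraries, and the totals overlapped through host Tconv 1. In Tnfaip3 (chr10:18998941-19016206) the libraries of 1 group disagreed: host tTreg 2 had a single peak over 17073 bp and host tTreg 1 over 1744 bp, and host pTreg 1 had 14847 bp and host pTreg 2 had 2526 bp. Donor Treg libraries had 1941 and 6133 bp, Tconv libraries 2117 to 6811 bp and iTreg libraries 3 pieces of 3012 and 3904 bp together. Ahnak was in 1 piece of 1537 to 3189 bp in Treg and in 2 pieces of 1961 to 3740 bp together in Tconv libraries.

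Because a domain entered through its widest library, cover in that library is not independent of the choice. The counts were therefore repeated for domains that overlap a region at least 4000 bp wide merged from only the libraries outside a comparison. For donor Treg against donor Tconv 231 domains qualified through the other 8 libraries, and 19 (8.23%) were called less and 0 more. For in vivo Treg against Tconv 134 qualified through the 2 iTreg libraries, and 32 (23.9%) were called less and 1 more. For iTreg against in vivo Treg 168 qualified through the 4 Tconv libraries, and 41 (24.4%) were called more and 7 (4.17%) less. The shares called less stayed near those of the whole set, and the share called more in iTreg cells was lower than its 37.6%. Since the bounds were shared, this nearness is no separate support.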

How the data were processed

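ATAC-seq peak lists of 12 libraries were used. The submitters' processing notes name the build mm10 and the tools bedtools, HOMER 4.10 and Bowtie2 2.3.3 without their roles; calling settings and read depth are unknown. The deposited score, always 1000, was not used. The deposited start and end of each peak are the only measure, and no deposited peak is narrower than 150 bp. No list was scaled in the main fit.

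Peaks sharing 1 bp were merged, and covered bases, pieces and the longest peak were taken per library. Coordinates are 1-based; genes and promoters are RefSeq's for GRCm38.p6, and 16457 of 20665 autosomal coding genes had a promoter. A domain was named by coding genes whose start it covers, else by the body it overlaps, else by the nearest gene end within 50 kb. Shares covered were fitted with limma 3.58.1 (R 4.3.3; 12 libraries, 6 group means, Benjamini-Hochberg over 64001 regions, 0.05), tested on simulated data. Exact permutation tests used scipy 1.17.1. The labels do not name separate animals, so p-values cover only the spread among these libraries, possibly technical. Named are the 10 widest domains, the 3 at each side of the limit, the 10 largest differences called per comparison and direction, up to 10 broken domains, and domains at list genes; others named were chosen after their values were seen, as were the members shown as sequences. Members and lists were chosen with earlier results of these data known.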

Additional observations from a re-analysis of the deposited data

How the results depend on the processing

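Read depth is unknown, groups hold 2 libraries, and run codes and cell type are partly confounded, so counts of calls depend on single lists and on scaling. Scaling to equal library totals gave 13 domains covered more and 13 less in donor Treg against donor Tconv, 42 and 34 in in vivo Treg against Tconv, 21 and 94 in iTreg against in vivo Treg, and 2 more in donor Treg against host Treg. Equal totals over shared narrower regions, chosen after seeing the data like the next 3 settings, gave 6 more, 18 more, 51 more with 40 less, and 2 more in the same order. Within run code BW13, 10 domains were covered less in each of the first 2 comparisons. Among members with a peak in all 12 libraries, 5 were covered less in iTreg cells. Choosing domains from libraries not compared left fewer domains, with bounds still from all 12 lists. It gave 0 more in the first comparison, 1 more and 32 less in the second and 41 more in the third. With it the percent of peak bases had an exact permutation p = 0.019. On the log2 scale 1 domain was covered more in host pTreg against host tTreg, and 1 more and 2 less in donor Treg against host Treg.

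Leaving out each of the 12 libraries in turn gave 0 to 2 more and 9 to 42 less in donor Treg against donor Tconv, 2 to 6 and 39 to 124 in in vivo Treg against Tconv, and 50 to 107 and 4 to 13 in iTreg against in vivo Treg. It gave 0 to 3 and 0 to 1 in host pTreg against host tTreg, 0 to 3 and 0 to 2 in donor Treg against host Treg, and 1 to 21 and 0 to 15 in donor against host Tconv; the lone library left in a group is assumed to vary like the others. The exact permutation p of total covered bases ran from 0.0238 to 0.0952, and that of the percent of peak bases from 0.0476 (without host Tconv 2) to 1.0. The difference in percent of peak bases changed sign at a width of 5000 bp (exact permutation p = 0.524) and, with exact permutation p = 1.0 and 0.937, without donor Treg 1 and 2, 0.857 and 0.786 without donor Tconv 1 and 2, and 0.905 without host Tconv 1. The cause was not tested.

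With a replicate block, donor Treg against donor Tconv gave 0 domains more and 19 less, in vivo Treg against Tconv 2 and 60, and iTreg against in vivo Treg 91 and 9. Over 15 pairs of groups, deviations of same-numbered libraries had correlations from -0.36 to 0.0966, with a median of -0.0441, and 0 were over 0.1. Whether same-numbered libraries share anything beyond the number was not settled by this.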

Other observations

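The X chromosome, outside the 19 autosomes counted, held 3 regions of at least 4000 bp among 1739. The widest lay over Tsc22d3 (6586 bp), the gene of the glucocorticoid-induced leucine zipper, and 2 lay in Bcor (4645 and 4708 bp), a corepressor that works with Bcl6.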
